A study of Homo sapiens with 7 samples.

Results

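The genes described here encode the ribosomal proteins of the mitochondrion. They were taken as all protein-coding genes whose symbol starts with MRPL or MRPS followed by a number, with pseudogenes left out. The annotation holds 78 such genes, and all 78 were found among the 62238 genes of the count files. By symbol, 49 belong to the large and 29 to the small subunit. Messenger RNA was measured by RNA-seq in 3 libraries of MEG-01 cells, an established line from a human megakaryoblastic leukemia. Of these, 1 came from a control line that carries a lentiviral transgene and 2 came from lines that express a different short hairpin RNA against RBM15 (shRBM15#1 and shRBM15#2). All lines were at passage 5 and were harvested in exponential growth in RPMI1640 with 10% FBS, and each line was sequenced in 1 library. The knockdown lines were selected with puromycin for stable expression, and the labels do not say that a line was cultured more than once. Sites bound by RBM15 came from RNA immunoprecipitation and sequencing (RIP-seq) in MEG-01 cells with an antibody against RBM15 or with normal immunoglobulin (IgG).

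The mitochondrial ribosome translates the few messenger RNAs of the mitochondrial genome, which encode membrane subunits of the respiratory chain and of ATP synthase. Its ribosomal RNAs are made inside the organelle, whereas all of its proteins are encoded in the nucleus, made in the cytosol and imported. The large subunit carries the peptidyl transferase center and the exit tunnel, and the small subunit carries the decoding center. Some of the proteins have bacterial counterparts, and the others are specific to mitochondria. RBM15 is an RNA-binding protein of the nucleus that takes part in splicing and in the m6A methylation of RNA.

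Of the 78 genes, 3 had a site on the list of RBM15 binding sites. All 3 sites are annotated to the 3'UTR, and none of them remains at a false discovery rate (FDR) under 0.01. The most U-rich 30 bases of each site are shown as a sample of its sequence. They were picked by their T content, and which bases within a site were bound was not measured. They are written 5′ to 3′ as DNA on the strand of the transcript, with T in capitals, and were read from GRCh37 at chr1:151732356-151732385 (minus strand), chr2:75882521-75882550 (plus strand) and chr17:55917009-55917038 (minus strand).
MRPL9: caTgTTgaaTTcTTcaTTTTTgccaTcTTT
MRPL19: caTTcaTTgTTTTaTTaaTacTTTTTTTcT
MRPS23: TaTTaTgTTTgccTTcTcTTagTTaTTTcT
These windows held 16, 19 and 18 T bases.

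The 3 RNA-seq libraries held 41629454 to 53230029 reads on exon bins, which are the pieces into which overlapping exons of a gene are split. A further 23.2% to 32.0% of the reads of a library were assigned to no gene, with the highest share in shRBM15#1. Levels are given as CPM, the read count of a gene scaled to the library size after multiplication of that size by a TMM factor. The TMM factors, from the normalization in edgeR, were 0.931 in the control, 1.079 in shRBM15#1 and 0.996 in shRBM15#2. RBM15 itself was at 80.2 CPM in the control, 43.7 in shRBM15#1 and 40.7 in shRBM15#2. Its log2 fold change was -0.93 with a standard error (SE) of 0.23 and an adjusted p of 0.0908 by the quasi-likelihood test of edgeR. Megakaryocytic markers were abundant (8 of 10 had at least 30 reads, with ITGA2B highest), and their summed level was 1262 CPM in the control and 885 and 1118 CPM in the knockdown lines. Erythroid markers, all 7 of them detected, summed to 252, 814 and 806 CPM, and HBG1 was the highest. Myeloid markers (6 of 7 detected) summed to 147, 73.6 and 94.3 CPM. Lymphoid markers summed to 4.77, 5.36 and 4.47 CPM, and no marker on any list was without reads. The part of these shifts between lineage markers in the results below was not tested, and in bulk RNA fewer cells of a type and less RNA per cell cannot be told apart.

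All 78 genes had reads on their bins and passed the filter of 30 reads over the 3 libraries. For 7 of them, under 50% of the coding bases of the canonical transcript lie in these bins. Together they took 0.491% of the reads on bins in the control, 0.577% in shRBM15#1 and 0.588% in shRBM15#2. These shares are without the TMM factors. With the factors, their summed CPM was 1.65% above the control in shRBM15#1 and 12.05% above it in shRBM15#2. The distance of shRBM15#1 from the control thus depended on the scaling. The member with the fewest reads had 88, 112 and 98 reads, and the median member had 2724 reads in the control. Levels were compared between genes as CPM per kilobase of exonic length. In the control, the large subunit genes spanned 3.28 to 119 with a median of 26.1, and the small subunit genes spanned 3.66 to 61.1 with a median of 22.1. The medians were 26.5 and 28.8 in the knockdown lines for the large subunit and 21.7 and 24.5 for the small subunit. The levels differed 36.3-fold and 16.7-fold from lowest to highest within the subunits, far more than between libraries. Among genes with at least 95% of their coding bases in bins, the differences were 31.8-fold and 9.16-fold.

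Over the length of all bins, MRPL3 and MRPL37 led the large subunit in every library. Over the length of bins with at least 10 reads, MRPL51 with 85.3 and MRPL21 with 74.5 CPM per kilobase stood between them in the control. MRPL3, which lies near the peptidyl transferase center, had the highest length-scaled level, with 119 CPM per kilobase in the control and 115 and 120 in the knockdown lines. MRPL37, a mitochondria-specific protein, followed with 68.9, 83.4 and 98.8. MRPL21 had 63.8, 64.9 and 78.2. In the small subunit, the highest levels in the control were those of MRPS18B with 61.1, 42.2 and 44.3, MRPS23 with 57.9, 54.9 and 57.6, and MRPS35 with 49.1, 50.9 and 54.7. In both knockdown lines MRPS18B was below MRPS23, MRPS35 and MRPS34, and it was also below MRPS15 in shRBM15#1 and below MRPS21 in shRBM15#2.

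Most of the lowest length-scaled levels belonged to genes whose bins hold little of the coding sequence. Of the 78 genes, 68 had at least 95% of the coding bases of their canonical transcript inside their own bins. MRPL46, the lowest of the large subunit with 3.28, 4.02 and 4.05 CPM per kilobase, had 39.3% of them. MRPL53 had 3.57, 3.85 and 4.69 CPM per kilobase and 0% of its coding bases in bins. MRPL43 had 3.74, 4.48 and 5.91, with all of its coding bases in bins, and 36.9% of the positions in its bins are also covered by bins of another gene. Over the length of bins with at least 10 reads, MRPL43 was at 6.60 in the control, above MRPL30 with 4.42, and was not among the 3 lowest. MRPL30 had 0% of its coding bases in bins. In the small subunit, MRPS17 was lowest with 3.66, 3.45 and 4.91 and 0% of its coding bases in bins, MRPS24 had 3.95, 4.32 and 4.63 with 7.78% of them, and MRPS6 had 4.21, 6.41 and 7.47 with 50.7%. Except for MRPL43, the values of these genes are those of the parts that were counted.

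**Figure D1:**
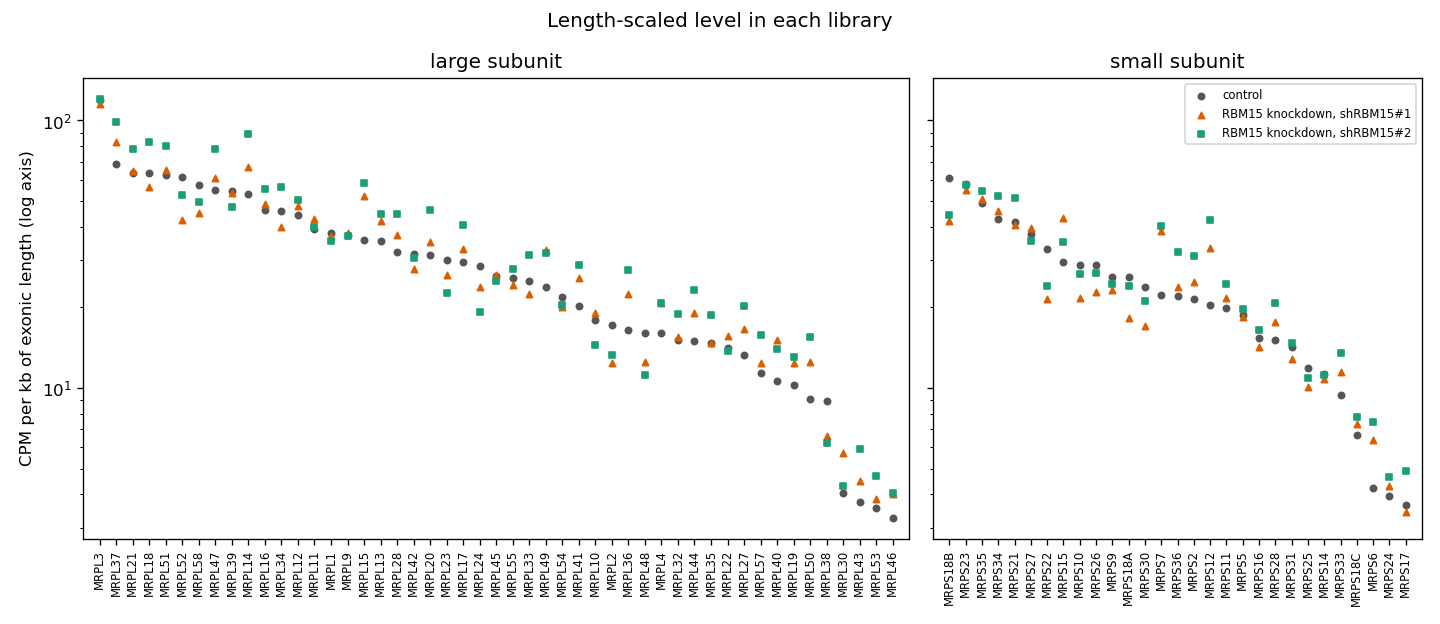
Length-scaled level of each gene in each library, as CPM per kilobase of exonic length on a log axis, with the large subunit on the left and the small subunit on the right and genes ordered by the control. MRPL3 stands at the top at 115 to 120 in the 3 libraries, and the last genes of each panel lie between 3.28 and 7.47.

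No gene of the group passed the test after RBM15 knockdown. Among all 24887 genes tested, 86 passed at an adjusted p under 0.01, which is 0.346%, and among the 78 genes 0 did. The smallest adjusted p of a member was 0.121 by the quasi-likelihood test of edgeR and 0.0877 by the Wald test of DESeq2. At an unadjusted p under 0.05, 5 members were higher, against 9.61% of all genes, and 2 were lower, against 9.17%. As shares of the 78 genes, these are 6.41% and 2.56%. The only replicates in this test are the 2 knockdown lines, and how far control cultures vary among themselves was not measured.

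The log2 fold changes of the 78 genes ran from -0.54 (MRPS22) to 0.89 (MRPS12), and their standard deviation was 0.32. Over genes in the same range of abundance, 2.05 to 320 CPM, the standard deviation was 0.68. It was 0.31 over the cytosolic ribosomal protein genes, 0.26 over the mitochondrial translation factors and 0.38 over the assembly factors. None of the 78 genes changed by more than 2-fold, whereas 24.4% of all genes and 10.6% of the 12537 genes in that range did.

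More of the genes had higher than lower values. The median log2 fold change was 0.17 over the 78 genes, 0.02 over all genes tested and -0.14 over the genes in the same range of abundance. Of the 78 genes, 41 were higher than the control in both knockdown lines, 21 were lower in both and 16 differed in direction between the lines. These are 52.6% and 26.9% of the group. Among all genes, 39.7% were higher in both lines and 39.5% were lower in both, and in the same range of abundance the shares were 28.3% and 51.9%. Both lines are set against the same control library, so their directions are not independent. Without the filter on low counts, the scaling shifted the median of all genes by -0.13, and the split of the 78 genes went from 52 higher and 26 lower to 43 higher and 35 lower.

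On the TMM scale, the size of the shift differed between the knockdown lines. The median log2 difference from the control was 0.07 in shRBM15#1 and 0.27 in shRBM15#2. In 62 of the 78 genes, or 79.5%, the value was higher in shRBM15#2 than in shRBM15#1. The same held for 66.4% of the genes in the range of abundance and for 48.3% of all genes.

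The subunits were compared by their medians and by their summed CPM, without a test, because 1 control against 2 lines cannot give a two-sided exact permutation p below 0.333. The median log2 fold change was 0.18 for the large subunit, with 35 of 49 genes higher, and 0.10 for the small subunit, with 17 of 29 genes higher. The small subunit median was -0.03 in shRBM15#1 and 0.15 in shRBM15#2, so its sign was not shared by the lines. The large subunit medians were 0.11 and 0.32. Summed over its genes, the large subunit was at 3364 CPM in the control, 3474 in shRBM15#1 and 3865 in shRBM15#2, which is 3.26% and 14.9% above the control. The small subunit was at 1916, 1893 and 2051 CPM, which is 1.19% below and 7.04% above. In each subunit the lines differed from each other by more than shRBM15#1 differed from the control.

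The ratio of large to small subunit CPM was 1.76 in the control, 1.84 in shRBM15#1 and 1.89 in shRBM15#2. The symbols do not follow the structure in every case. MRPS30 and MRPS18A are proteins of the large subunit in the assembled ribosome, and MRPS36 is now known as a subunit of the 2-oxoglutarate dehydrogenase complex. With these 3 genes placed by structure, the ratio was 2.08 in the control, 2.09 in shRBM15#1 and 2.19 in shRBM15#2, so the difference from the control in shRBM15#1 was reduced to 0.103%.

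**Figure D2:**
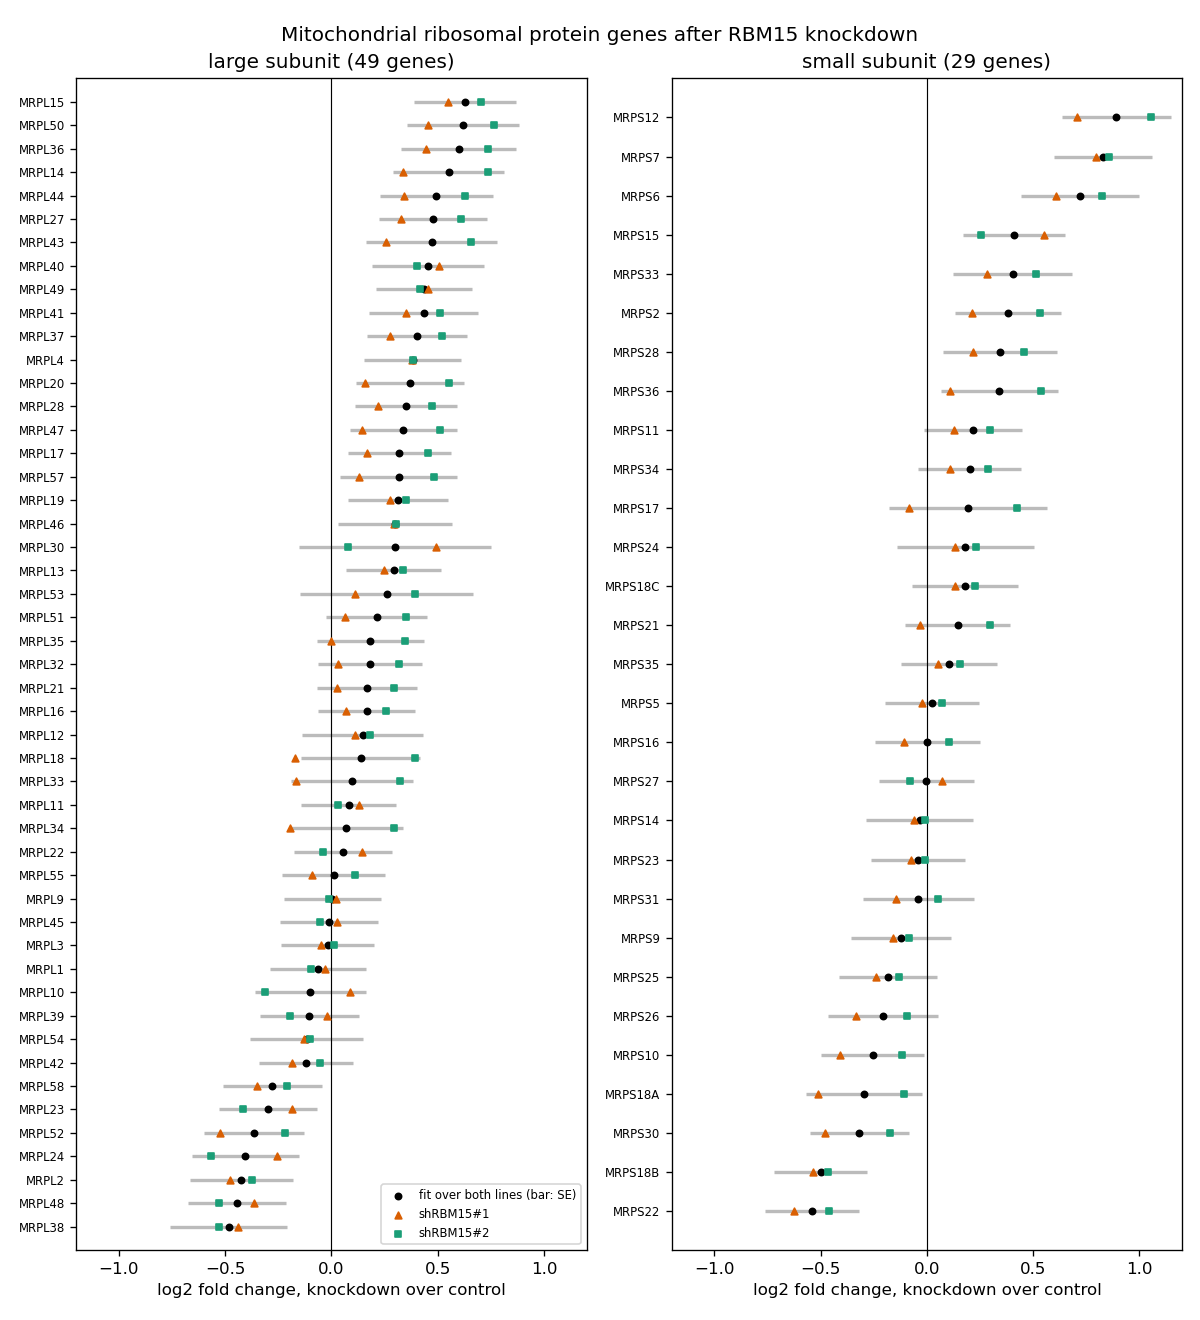
Log2 fold change of each gene, with the large subunit on the left and the small subunit on the right. Black points are the fit over both knockdown lines with its SE as a grey bar, triangles are shRBM15#1 and squares are shRBM15#2, each against the 1 control. The points run from -0.54 for MRPS22 to 0.89 for MRPS12, and most squares lie to the right of the triangles.

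The highest fold changes were in the small subunit. MRPS12, the protein of the decoding center known from streptomycin resistance in bacteria, was at 43.8 CPM in the control, 71.5 in shRBM15#1 and 91.2 in shRBM15#2. Its log2 fold change was 0.89 with an SE of 0.26 (edgeR adjusted p = 0.132). MRPS7, which binds the ribosomal RNA in the head of the small subunit, was at 74.0, 128 and 134 CPM, with a log2 fold change of 0.83, an SE of 0.23 and an edgeR adjusted p of 0.121. Its knockdown lines lay close together and far from the control. MRPS6, a protein of the platform, was at 16.4, 24.9 and 29.02 CPM (log2 fold change 0.72, SE 0.28). The bins of MRPS12 and MRPS7 share 16.3% and 10.8% of their positions with bins of other genes. With those bins left out the log2 fold changes were 0.90 and 0.83.

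In the large subunit, 5 genes were among the 8 highest changes. MRPL15 was at 42.6 CPM in the control and at 62.3 and 69.3 CPM in the knockdown lines (log2 fold change 0.63, SE 0.24). MRPL50, a mitochondria-specific protein, was at 30.4, 41.6 and 51.6 CPM (0.62, SE 0.26). MRPL36, the counterpart of a small zinc-binding protein of the bacterial ribosome, was at 23.04, 31.4 and 38.3 CPM (0.60, SE 0.27). For each of these 3 genes the value of shRBM15#2 was above that of shRBM15#1. The 8 highest and 8 lowest changes were taken among genes with the same direction in both lines, so that agreement is not a result. MRPL14 was at 50.9, 64.3 and 85.0 CPM (0.55, SE 0.26). MRPL44, which resembles a ribonuclease III, was at 26.3, 33.3 and 40.7 CPM (0.49, SE 0.27). The edgeR adjusted p-values of these 5 genes were 0.217 to 0.353. Of the genes with the highest changes, MRPL15 and MRPL50 of the large subunit and MRPS6, MRPS7 and MRPS12 of the small subunit had an unadjusted p under 0.05.

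The lowest fold changes came from both subunits too. MRPS22, a mitochondria-specific protein of the small subunit, was at 178 CPM in the control, 116 in shRBM15#1 and 130 in shRBM15#2 (log2 fold change -0.54, SE 0.22, edgeR adjusted p = 0.241). MRPS18B was at 115, 79.6 and 83.7 CPM (-0.50, SE 0.22, edgeR adjusted p = 0.265). MRPL38, a protein of the central protuberance, was at 20.5, 15.1 and 14.2 CPM (-0.48, SE 0.27), but only 5.88% of its coding bases lie in its bins. Both knockdown lines were below the control in all 3 genes, which the selection by shared direction required.

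The other low values were in genes of the large subunit, by symbol or by structure. MRPL48, also of the central protuberance, was at 70.6, 54.9 and 48.97 CPM (-0.44, SE 0.23). MRPL2, which sits at the peptidyl transferase center, was at 43.7, 31.4 and 33.7 CPM (-0.43, SE 0.24). MRPL24, a protein at the exit of the tunnel, was at 48.4, 40.5 and 32.7 CPM (-0.40, SE 0.25). MRPL52 was at 197, 137 and 169 CPM (-0.37, SE 0.23), and its value in shRBM15#2 lay between those of the control and shRBM15#1. MRPS30 was at 147.5, 106 and 131 CPM (-0.32, SE 0.23). The edgeR adjusted p-values of these 5 genes were 0.335 to 0.501.

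The genes MRPS18A, MRPS18B and MRPS18C encode homologs of the same bacterial protein. MRPS18C, at 32.5, 35.6 and 38.0 CPM in the control, shRBM15#1 and shRBM15#2, had a log2 fold change of 0.18 (SE 0.25). MRPS18A was at 33.3, 23.4 and 30.9 CPM (-0.30, SE 0.28), and MRPS18B, the most abundant in every library, had the value given above. Per kilobase in the control the levels were 25.95 for MRPS18A, 61.1 for MRPS18B and 6.67 for MRPS18C. Over the length of bins with at least 10 reads they were 49.01, 63.8 and 10.5. The difference between the 3 changes was not tested. Bins of other genes cover 47.0% of the positions in the bins of MRPS18A and 36.5% of those of MRPS18C. Without the shared bins the log2 fold changes were still -0.30 and 0.18.

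With genes placed by structure, of the 30 large subunit proteins with a bacterial counterpart, 24 were higher and 6 lower (median 0.17). The 21 without one were 11 higher and 10 lower (median 0.21). In the small subunit, 13 of 16 genes with a bacterial counterpart were higher (median 0.19), against 3 of 10 without one (median -0.04). In this count MRPS18A (-0.30) and MRPS18B (-0.50) stand among the genes without a counterpart, although both encode homologs of a bacterial protein. The 5 genes listed for the stalk that recruits translation factors had a median of 0.08, with values from -0.12 to 0.26. Among them, MRPL12 (0.15) and MRPL53 (0.26) had 4.04% and 0% of their coding bases in bins. The 7 genes listed for the central protuberance spanned -0.48 to 0.48 with a median of 0.14. The 6 genes listed around the polypeptide exit had a median of 0.02, and the 8 listed for the head of the small subunit had a median of 0.03. The lists of these regions may not be complete, and the medians hold for the listed genes. For all 78 genes the median was 0.17. These differences were not tested.

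The other genes of mitochondrial translation were described in the same way. None of the 59 genes on the lists below passed the adjusted limit of 0.01 in edgeR. Of the 5 mitochondrial ribosomal proteins with other symbols, AURKAIP1 was at 86.8, 123 and 133 CPM (log2 fold change 0.56, SE 0.23, edgeR adjusted p = 0.240). DAP3, a GTP-binding protein of the small subunit, was at 361, 250 and 280 CPM (-0.45, SE 0.22). The list had 3 higher and 2 lower genes with a median of 0.23. Of the 25 assembly factors, 16 were higher and 9 lower, with a median of 0.21, and at an unadjusted p under 0.05 there were 2 higher and 1 lower, which is no larger a share than the 9.61% and 9.17% of all genes.

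Those 3 assembly factors act on mitochondrial RNA or ribosomal RNA. MRM3, a methyltransferase of the large ribosomal RNA, was at 29.1, 52.4 and 59.3 CPM (0.94, SE 0.25, edgeR adjusted p = 0.112). TRUB2, a pseudouridine synthase, was at 37.3, 68.3 and 73.7 CPM (0.93, SE 0.24, edgeR adjusted p = 0.103). TFB1M, which dimethylates the small ribosomal RNA, was at 48.4, 29.4 and 30.5 CPM (-0.69, SE 0.24, edgeR adjusted p = 0.184). In each of the 3 genes the knockdown lines lay on the same side of the control. These were chosen from the list because they had an unadjusted p under 0.05, after their values had been seen.

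Of the 15 translation factors, 13 were higher and 2 lower, with a median of 0.31, and the medians in the lines were 0.04 and 0.43. SLIRP, a partner of LRPPRC in stabilizing mitochondrial messages, was at 184, 246.5 and 306 CPM (0.59, SE 0.24, edgeR adjusted p = 0.245). LRPPRC itself was at 592, 549 and 527 CPM (-0.14, SE 0.22). Of the 12 regulators of mitochondrial biogenesis, 5 were higher and 7 lower. ESRRA, the nuclear receptor ERR alpha, was at 99.4, 41.3 and 63.4 CPM (-0.92, SE 0.28, edgeR adjusted p = 0.147). NRF1 and YY1, transcription factors with known sites in promoters of this group, were at 13.6, 13.3 and 13.0 CPM and at 125, 113 and 128 CPM. The RNA partners of the proteins, MT-RNR1 and MT-RNR2, differed widely between the lines. MT-RNR1 was at 98.9, 382 and 146 CPM and MT-RNR2 at 146, 864 and 355 CPM, and their edgeR adjusted p-values were 0.183 and 0.0770.

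For comparison, the 101 nuclear genes of oxidative phosphorylation had a median log2 fold change of 0.07, with medians of -0.03 in shRBM15#1 and 0.19 in shRBM15#2. Of these, 91 (90.1%) were higher in shRBM15#2 than in shRBM15#1. The 86 genes of cytosolic ribosomal proteins had a median of -0.12, with -0.03 and -0.17 in the lines, and 26 were higher and 60 lower. In this group, 23 of the 86 genes were higher in shRBM15#2 than in shRBM15#1.

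**Figure D3:**
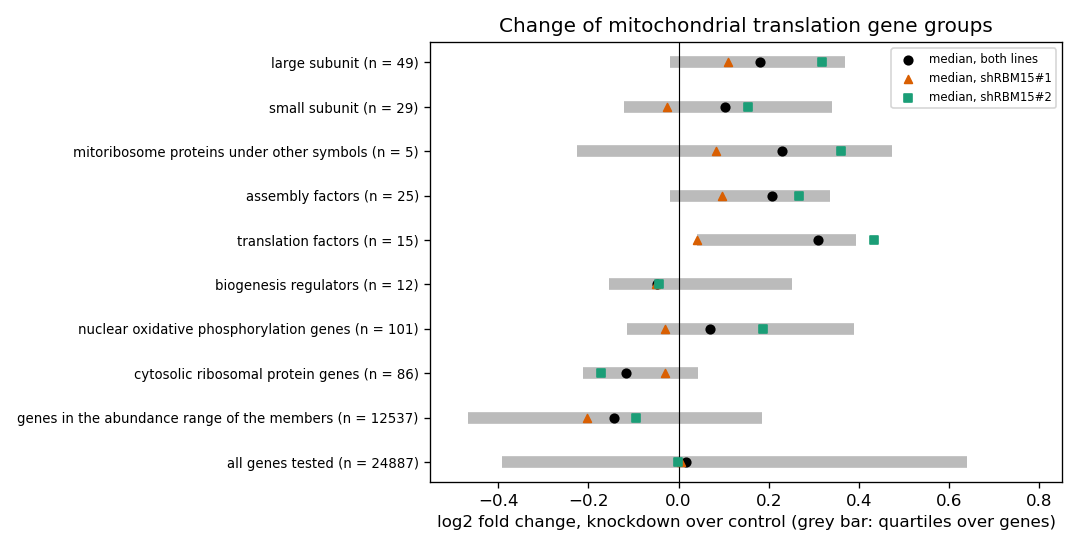
Log2 fold change by gene group, with the median of the fit as a black point, the medians of shRBM15#1 and shRBM15#2 as a triangle and a square, and the quartiles over genes as a grey bar. The large subunit has its median at 0.18, the translation factors have theirs at 0.31, and the cytosolic ribosomal proteins have theirs at -0.12.

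Exon usage was tested for each bin against the rest of its gene with diffSpliceDGE in edgeR. Over 1005 bins of 76 members, 19 bins in 13 genes passed an unadjusted p under 0.05 with a fold above 1.2. This is 1.89% of the bins, and over all bins tested it was 1.45%. Of the 19 bins, 7 were used more and 12 less in the knockdown, and 14 are not part of the canonical transcript. At an adjusted p under 0.05, 0 bins of members passed, against 0.0205% of all bins, with a smallest adjusted p of 0.214. At an unadjusted p under 0.05 there were 19.

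The smallest p belonged to MRPL4, a protein of the large subunit. Its bin 029 took 3.20% of the reads of the gene in the control, 7.51% in shRBM15#1 and 6.94% in shRBM15#2 (relative log2 change 1.17, edgeR adjusted p = 0.214). The bin lies on chromosome 19 from 10369362 to 10369718 (GRCh37) and holds coding sequence and 3'UTR of an annotated transcript other than the canonical one. MRPL50 showed the opposite pattern at its 3' end. The bins 001 and 002, which form the distal 3'UTR of its canonical transcript on chromosome 9 from 104149915 to 104151769, together took 11.6% of its reads in the control, 5.37% in shRBM15#1 and 5.05% in shRBM15#2. Bin 001 had 120, 71 and 86 reads, while the gene as a whole had 1504, 1863 and 2692.

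MRPS25 also had less of its reads in bins near the 3' end, which stand 13 and 14 of 15 tested bins from the 5' end. The last bin was not past the limits, and bin 002 is not in the canonical transcript. Its bins 002 and 003, both annotated as 3'UTR, held 16.1%, 9.25% and 8.65% of its reads in the control, shRBM15#1 and shRBM15#2. In MRPL13, bin 008, an intron kept in one annotated transcript, held 2.36%, 1.33% and 1.13%. MRPS21 had the bin with the largest share, a 5'UTR piece outside the canonical transcript with 26.1% in the control, 16.6% in shRBM15#1 and 17.4% in shRBM15#2 (bin 002, relative log2 change -0.61). MRPS36 had a 5'UTR bin at 2.15%, 0.673% and 0.702%, and MRPS22 had one at 1.94%, 1.08% and 1.21%.

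In MRPL52, 4 bins in the 5'UTR passed, of which 3 next to each other were used more and 1 was used less. The 3 adjacent bins are 8, 100 and 1 bases wide. Reads in the bin of 1 base (87, 89 and 143) must reach beyond it, so these 3 bins are not independent. The bin with the smallest p among them, 014, held 0.954%, 1.73% and 1.81% of the reads. The bins of MRPL11 and MRPL48 held under 1% of the reads of their genes. For MRPL11 the reads were 7, 19 and 21, and for MRPL48 they were 28, 8 and 10. In all of the bins named here, which were selected by p and fold, the knockdown lines lay on the same side of the control.

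**Figure D4:**
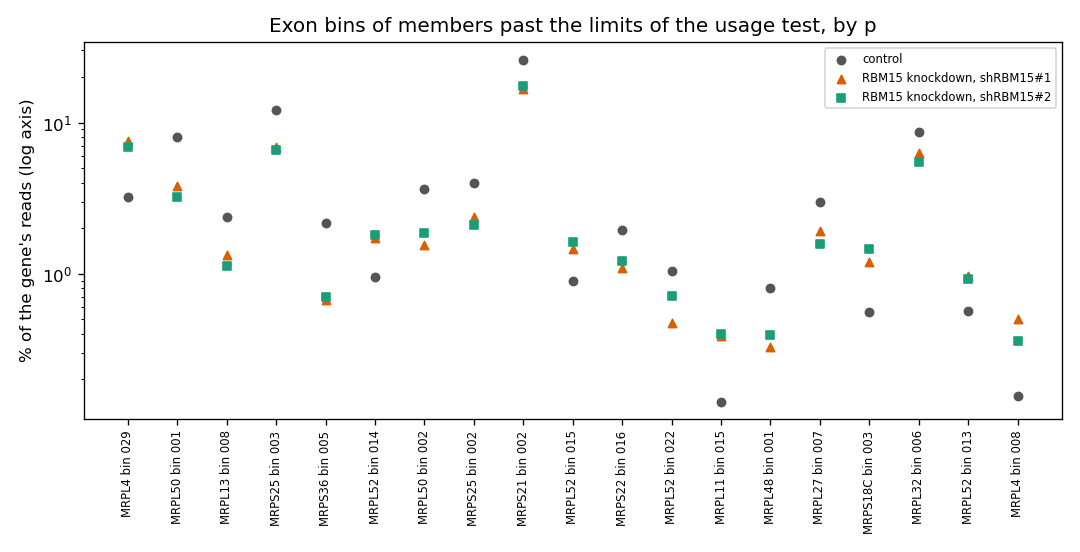
Share of the reads of its gene in each of the 19 exon bins past the limits, on a log axis and ordered by p, in the control (circles), shRBM15#1 (triangles) and shRBM15#2 (squares). MRPS21 bin 002 is the highest with 26.1% in the control, and the knockdown lines lie close together in most bins.

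Of the 78 genes, 3 (3.85%) had an RBM15 site, against 5.52% of the 16351 protein-coding genes tested and 6.78% of those in the same range of abundance. At an FDR under 0.01, 0 members had a site, against 3.17% of the protein-coding genes. The site list holds 1515 sites that the authors selected for more reads with the RBM15 antibody, so the direction of the counts is not a result. For 1 library of each antibody the label and the side of the authors' comparison match. The other libraries, a second one labelled normal IgG and a second one labelled RBM15 antibody, stand on the opposite side of that comparison from their labels and were put in no group.

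The site of MRPL9, a large subunit protein with a bacterial counterpart, lies at chr1:151732189-151732585 on the minus strand (hg19). It had 6 reads with normal IgG and 167 with the RBM15 antibody, and the libraries without a group had 104 (labelled IgG) and 7 (labelled RBM15 antibody). The site of MRPL19, at chr2:75882240-75882797 on the plus strand, had 9 and 186 reads, and 132 and 9 in the libraries without a group. The site of MRPS23, a mitochondria-specific protein of the small subunit, at chr17:55916891-55917228 on the minus strand, had 10 and 162 reads, and 121 and 4. Thus in each site the library labelled IgG and assigned to no group was nearer in reads to the library with the RBM15 antibody than to normal IgG. Over all sites it had 610915 reads, the library with the RBM15 antibody had 807871 and normal IgG had 28387. With the RBM15 antibody, all 3 sites had fewer reads than most on the list. The median 3'UTR site had 436 reads with this antibody and 19 with normal IgG. By reads with the RBM15 antibody, MRPL19, MRPL9 and MRPS23 ranked 969, 1044 and 1062 of 1515. By reads with normal IgG they ranked 691, 891 and 644. These reads were not scaled to the level of the transcript or the width of the site.

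All 3 sites run across the end of the coding sequence. Their first 57 (MRPL9), 169 (MRPL19) and 82 (MRPS23) bases are coding bases of the canonical transcript, and the next 340, 389 and 256 bases are 3'UTR. Among the 416 sites annotated as 3'UTR that could be matched to a canonical coding sequence, 187 (45.0%) covered its last base. U made up 23.9%, 31.0% and 32.8% of the 3 sites, and the median over 3'UTR sites was 33.0%. None of the 3 held GGACT, a frequent form of the m6A motif, on the transcript strand, whereas 22.3% of the 443 3'UTR sites did. The U-rich windows printed above lie in the 3'UTR part of each site.

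The 3 genes with a site had log2 fold changes of 0.00 (MRPL9, SE 0.23), 0.32 (MRPL19, SE 0.24) and -0.04 (MRPS23, SE 0.22). MRPL9 was at 63.3, 64.2 and 62.7 CPM in the control, shRBM15#1 and shRBM15#2. MRPL19 was at 47.2, 57.2 and 60.3 CPM, and MRPS23 was at 97.2, 92.1 and 96.6 CPM. Both knockdown lines were above the control in MRPL19 and slightly below it in MRPS23, and they lay on either side of it in MRPL9. The exon bins under the sites were tested where they had reads, which leaves out 171 of the 397 bases of the MRPL9 site. The bin that holds the whole MRPS23 site took 24.9%, 25.1% and 25.8%, and none of the tested bins under the 3 sites had an unadjusted edgeR p below 0.530. None of these 3 genes was among those with a bin past the limits. By position, MRPL47 was the only other member that overlapped a site, and that site belongs to ACTL6A on the opposite strand. Of the pathway lists, the translation factors LRPPRC (2 sites) and GFM2 (1 site) had RBM15 sites, all in 3'UTRs.

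**Figure D5:**
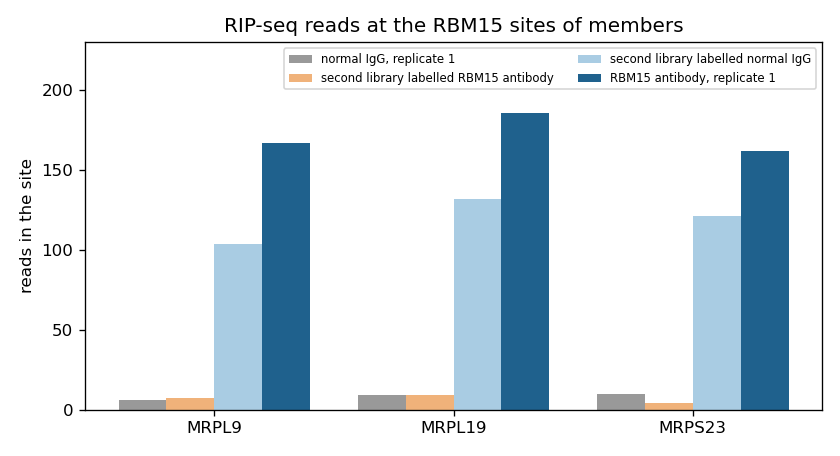
RIP-seq reads in the sites of MRPL9, MRPL19 and MRPS23 in each of the 4 libraries. The library with the RBM15 antibody and the second library labelled normal IgG have 104 to 186 reads, and the other bars are at 4 to 10.

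The genes share features of their promoters that the selection by symbol did not use. Promoters of 69 of the 78 genes were found in the RefSeq table (GRCh38.p14), as 250 bases before to 50 bases after the start site. The letters AAGATGGC, the core of the YY1 motif, occurred on either strand in 20 of them (28.99%), against 3.91% of the 15843 promoters of protein-coding genes. In 15 members (21.7%) they stood on the gene's own strand downstream of the start site, against 2.18% of all promoters. These letters contain ATG, so a downstream match can lie at the start of the coding sequence, and this was not examined. CCGGAAGT, a site of ETS factors such as GABPA, occurred in 11 members (15.9%) and in 6.19% of all promoters. The palindromic NRF1 motif of 10 letters occurred in 1 member, MRPL17 (1.45%), and in 1.75% of all promoters. Any of the 3 motifs was present in 27 members (39.1%) and in 11.1% of all promoters. A match is a description of the letters and not a site.

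The YY1 letters stood in genes with values of either sign. The 20 genes with AAGATGGC had a median log2 fold change of 0.12 with 11 higher, and the other 49 matched genes had a median of 0.15 with 35 higher. The 30 bases around the match are shown for 4 genes from both ends of the order of change, because the same letters stand in genes with higher and with lower values. The fifth shows the ETS letters next to the start site of MRPS22, the gene with the lowest fold change. All are on the strand of the gene from the GRCh38.p14 table, and capitals mark the match.
MRPS7 (chr17:75261887-75261916, plus strand, log2 fold change 0.83): cgtggccagccAAGATGGCtgcccccgcag
MRPL50 (chr9:101398577-101398606, minus strand, log2 fold change 0.62): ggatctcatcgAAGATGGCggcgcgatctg
MRPS30 (chr5:44808949-44808978, plus strand, log2 fold change -0.32): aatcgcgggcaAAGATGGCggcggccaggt
MRPS18B (chr6:30617852-30617881, plus strand, log2 fold change -0.50): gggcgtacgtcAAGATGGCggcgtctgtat
MRPS22 (chr3:139343987-139344016, plus strand, log2 fold change -0.54): ccctcccaaccACTTCCGGcgcaagtggct

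Many of the genes also start close to a neighbour on the other strand. A head-to-head protein-coding neighbour, with its start site at most 1000 bases away (or overlapping by at most 200 bases), was found for 26 of the 78 genes (33.3%) and for 9.56% of all protein-coding genes. MRPS11 and MRPL46 form such a pair with each other, 320 bases apart, and had log2 fold changes of 0.22 (SE 0.23) and 0.30 (SE 0.27). For MRPS12 and MRPS7 the sign was not shared with the neighbour. SARS2, the mitochondrial seryl-tRNA synthetase that starts 181 bases from MRPS12, had a log2 fold change of -0.44 (SE 0.33), and GGA3, 273 bases from MRPS7, had -0.12 (SE 0.23). KLC4, next to MRPL2, had -1.23 (SE 0.25, edgeR adjusted p = 0.0557), the lowest of the neighbours. Over the 25 pairs with a value for both genes, 15 had the same sign. At an unadjusted p under 0.05 there were 4 neighbours, which is 16% against 18.8% of all genes. The RNA-seq had no strand information, so reads from overlapping ends of such pairs cannot be told apart.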

How the data were processed

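The RNA-seq reads carried no strand information. The authors mapped them to GRCh37 with STAR, guided by Ensembl gene models, and deposited whole-number counts of reads for each exon bin. The sources used here do not name the counting program, although HTSeq 0.6.0 is among the tools in the submitters' processing notes. For the RIP-seq, the authors mapped trimmed reads to hg19, found peaks on coverage pooled over the libraries and deposited raw counts of the peaks that passed a DESeq test. They also deposited fold changes, p-values and an FDR for bins or peaks, of which only the FDR was used, as a stricter limit on sites.

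Bin counts were summed per gene and tested with edgeR 4.0.16 in R 4.3.3 (TMM, quasi-likelihood test, Benjamini-Hochberg adjustment over the 24887 genes with at least 30 reads). Calls needed an adjusted p under 0.01. Exon usage was tested over 234192 bins with at least 30 reads. DESeq2 1.42.0, its size factors, no filter, other bin minimums, gene lengths over bins with at least 10 reads, a loess trend on expression and length, and 1 line left out were alternatives, and bins that share no position with another gene were used as an alternative chosen after seeing the data. Fold changes of single lines carry a prior count of 0.5. Sequences and tables were handled in Python 3.11.15. The tests were also run on simulated counts with known changes, and the outcome is not given here. The simulated bins had a fixed dispersion that was not taken from the data.

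Symbols came from a GENCODE annotation lifted to GRCh37. MRPS21, whose current identifier stands on a patch contig, was taken from its gene on chromosome 1. The 5 lines per file that name no gene were left out. The members and all lists were chosen with earlier results of these data known. Genes named are members that pass the test, the 8 highest and 8 lowest changes with the same direction in both lines, genes with an RBM15 site, the first 10 genes by p with an exon bin past the limits, the 3 highest and 3 lowest length-scaled levels per subunit, MRPS18A to MRPS18C and RBM15. Pathway genes, neighbours and genes named for a promoter match alone were named after their values had been seen. S6 kinases were left out of the cytosolic ribosomal proteins. The p-values rest on the spread between the 2 knockdown lines, which is moderated for each gene toward a trend over all genes. They are thus no measure of the spread of a single gene alone. The SE is the size of the log2 fold change divided by the square root of the F statistic. Members had 88 to 17004 reads in a library.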

Additional observations from a re-analysis of the deposited data

Results flagged for a closer look

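At all 3 RBM15 sites of mitochondrial ribosomal protein genes, a library outside the comparison had reads far above the normal IgG library. This is the second library labelled normal IgG, which the authors' comparison placed with the RBM15 libraries. It had 104 reads at MRPL9, 132 at MRPL19 and 121 at MRPS23, and normal IgG replicate 1 had 6, 9 and 10. The second library labelled RBM15 antibody had 7, 9 and 4. The list was selected for this contrast, so the values are a description, and whether the labels of the pair were exchanged was not tested. The contrast is not particular to these sites. Over all sites, the second library labelled normal IgG had 610915 reads and normal IgG replicate 1 had 28387. Scaled to these totals over sites, which are not library sizes, the former was lower than the latter at all 3 sites. The same held for RBM15 antibody replicate 1, which had 807871 reads over all sites. No group was large enough to look for a library that stands apart from its group.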

How the results depend on the processing

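No paired analysis was possible because the control has 1 library. With 1 line left out no spread remains, so such values carry no test, and exon bins were not tested that way. The count of members passing the adjusted limit was 0 under DESeq2 size factors, without the filter and in the Wald test of DESeq2. The count at an unadjusted p under 0.05 was 4 without the filter (2 higher and 2 lower, against 7.92% and 5.71% of all genes) and 4 in the Wald test (4 higher and 0 lower, against 6.42% and 6.65%), where it had been 7 (5 higher and 2 lower). The median log2 fold change of the 78 genes was 0.17 under size factors, 0.04 without the filter and 0.21 after removal of the trend on abundance and length, and with 1 line left out it ran from 0.08 to 0.27. Relative to all genes tested it was 0.15 with and without the filter. The large subunit median ran from 0.12 to 0.32 with 1 line left out. The small subunit median turned to -0.027 without the filter and ran from -0.015 to 0.15 with 1 line left out, with the low value without shRBM15#2. The large to small ratio of knockdown over control was 1.06 by symbol, 1.03 by structure and 1.05 to 1.07 with 1 line left out. Bins past the limits numbered 30 with a minimum of 1 read (2.42% of member bins and 1.77% of all bins) and 9 with a minimum of 300 (1.49% and 0.880%), where they had been 19. With an FDR under 0.01, 0 members had an RBM15 site, where 3 had one before, and the same 3 had one by position on the same strand.

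Among the named genes, those that changed sign had log2 fold changes of at most 0.19 in size. Without the filter MRPL9 was at -0.13, MRPL11 at -0.053 and MRPS35 at -0.027. With 1 line left out, MRPL3 ran from -0.039 to 0.013, MRPL9 from -0.013 to 0.032, MRPS17 from -0.075 to 0.42 and MRPS21 from -0.020 to 0.30. The filter acts through the scaling, which shifted all genes by -0.13. For the other changes of sign the cause was not tested.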
